A study of Mus musculus with 6 samples.

Results

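The TRIM family of ubiquitin ligases and chromatin cofactors, apart from Trim24 itself, was described in livers with and without Trim24. Members were taken by name, as every gene symbol made of Trim, a number and at most 1 further letter, which gave 64 of the 23284 genes counted. Liver RNA came from 8-week-old C57BL6/J mice and was sequenced in 3 wild type libraries (WT1 to WT3) and 3 libraries of the genotype labelled Trim24 -/- (KO1 to KO3). The sources used here do not say how the Trim24 allele was made. Nor do they say that replicates were separate animals, so a p-value here measures only the spread among 6 libraries, which may be technical.

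TRIM proteins typically carry a RING finger, B-boxes and a coiled coil, though some, such as Trim44, lack the RING. Where it is present, the RING of most of them attaches ubiquitin or related modifiers to other proteins. The C terminus sets the subgroup. A SPRY domain recognises protein targets and is common among members that restrict viruses, many of which are induced by interferon. A PHD finger with a bromodomain, which reads histone tails, marks the TIF1 group of Trim24, Trim28, Trim33 and Trim66. NHL repeats, a COS domain or a membrane segment mark others. The classes used here do not overlap, although a member may also carry a domain of another class. By these labels, 36 of the 64 members were classed as SPRY, 8 as COS and 4 as NHL. The class with the PHD finger and bromodomain held 3 and that with a membrane segment 2, and 11 were classed as other.

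Reads in genes numbered 1495583 to 2872421 per library, which was 4.22% to 6.69% of all counted reads. Neither the strand setting nor the reason why the rest fell in no gene is known here, so each count may hold only part of a gene's reads. Where a gene had no count, up to 3 counts remain possible, equal to 1.04 CPM in KO3 and 2.10 CPM in WT1, where CPM are counts per 1e6 reads in tested genes after TMM scaling. Trim24 checked the labels, with 31 to 45 counts in the wild type libraries and 2 or 3 in each knockout library. The 6 hepatocyte markers together reached 64551 CPM in KO2, the lowest library, and 110189 CPM in WT1, the highest, and all 6 were present throughout. Together, 15 pancreatic acinar markers reached 583 CPM in KO3, 879 CPM in KO1 and 11.9 to 38.4 CPM in the other libraries. Skeletal muscle markers (8 genes) summed to 52.4 CPM in WT1, 10.1 CPM in KO3 and at most 0.661 CPM elsewhere.

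Of the 64 members, 25 passed the filter on low counts and were tested, and 2 of them, Trim43b and Trim30a, rose in the knockout, while none fell. Over all 9180 tested genes 3.08% rose and 2.65% fell, by the edgeR quasi-likelihood test with an adjusted p under 0.05. At an unadjusted p under 0.05, 9 members were higher and 1, Trim13, was lower, against a background of 10.3% and 9.97% of tested genes. DESeq2 and limma-voom also called no member lower. The fitted change was positive for 22 of the 25, with a median log2 fold change of 0.47, and 0.01 over all tested genes. Groups did not overlap for 11 members that were higher in the knockout and 1 that was lower, where 12.4% and 12.6% of tested genes were so placed. The filter bears on these counts, since it asks for 3 libraries above a limit of 5.99 CPM and 7 of the 25 members passed with fewer than 3 wild type libraries above it. Among the 18 members that passed in all 3 wild type libraries, 15 had a positive change and the median was 0.29, with -0.02 over the 8061 genes that passed in the same way.

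**Figure D1:**
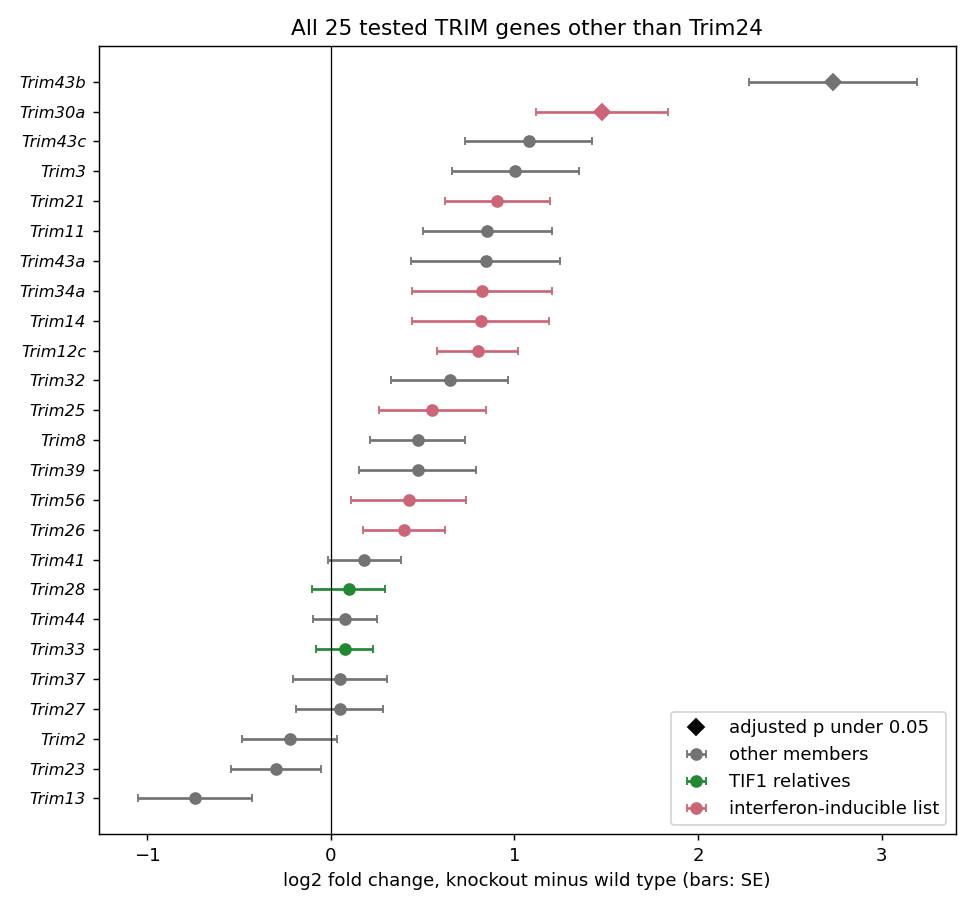
Log2 fold change of the 25 tested TRIM genes, knockout minus wild type, with bars of 1 standard error; colours mark the interferon-inducible list, the TIF1 relatives and the other members, and diamonds mark an adjusted p under 0.05. Trim43b (2.73) and Trim30a (1.47) are the diamonds, all 8 interferon-inducible members lie to the right of 0, and Trim28 and Trim33 lie within 1 standard error of 0.

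Interferon-inducible members were listed from general knowledge, but with earlier results of these data known, and 14 of them had a row. The 8 tested ones had positive changes throughout, with a median log2 fold change of 0.81, against 0.18 for the 17 other tested members, 14 of which were positive. Of the 8, 1 rose past the threshold, as did 1 of the 17, and the difference between the medians was not tested. When only members past the filter in all 3 wild type libraries were kept, the medians were 0.68 for 6 interferon-inducible members and 0.08 for 12 others. Summed over the 14, the level was 128, 132 and 103 CPM across WT1 to WT3 and 161, 233 and 220 CPM across KO1 to KO3. Each knockout library was above each wild type library, and KO1 was the lowest of the knockouts. The same held for the 17 other tested members, which summed to 359, 366 and 366 CPM across WT1 to WT3. They summed to 383, 471 and 416 CPM across KO1 to KO3.

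Trim30a, which restrains inflammatory signalling downstream of Toll-like receptors in mouse cells, rose. It stood at 6.99, 7.27 and 8.91 CPM across WT1 to WT3 and at 11.8, 32.0 and 20.9 CPM across KO1 to KO3. The groups did not overlap, and KO2 was the highest library and KO1 the lowest of the knockouts. The log2 fold change was 1.47 (SE 0.36, edgeR quasi-likelihood adjusted p = 0.029). The call ended with limma-voom (adjusted p = 0.076) and without WT1 (0.10), WT2 (0.10), WT3 (0.086), KO2 (0.12) or KO3 (0.059), with positive changes of at least 1.12 in each of these fits.

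Its neighbour and near copy Trim30d had 4, 5 and 6 counts in wild type and 7, 20 and 23 in the knockout, too few to pass the filter. Its ratio of knockout to wild type was 2.44, with an exact 95% counting interval of 1.35 to 4.67 that covers counting error only. Without the filter its edgeR adjusted p was 0.11. Trim30d and Trim30a shared 6.39% of the 50-base stretches of Trim30d, so a minority of reads could fall on either. Trim30b, the third copy counted, had 1 wild type and 5 knockout counts.

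Trim12c, a rodent relative of the retroviral restriction factor TRIM5, was the closest to the threshold. It was at 32.1, 30.4 and 20.2 CPM in wild type and 38.4, 54.3 and 50.1 CPM in Trim24 -/- livers, without overlap. The log2 fold change was 0.80 (SE 0.22, edgeR adjusted p = 0.0501), and it passed with upper quartile factors (0.042), without the filter (0.012) and without KO1 (0.025). Trim12a, beside it, had 4, 2 and 0 counts in wild type and 5, 11 and 16 in the knockout, 3.90 times the wild type level with a counting interval from 1.61 to 11.4, and an adjusted p of 0.073 without the filter. Of the 50-base stretches of Trim12c, 24.2% were also found in Trim5, which had no row among the genes counted, and 6.38% in Trim12a.

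Trim21, a cytosolic antibody receptor that marks antibody-coated viruses for destruction, was at 8.38, 6.61 and 8.91 CPM in wild type and 16.7, 13.6 and 15.0 CPM in Trim24 -/- livers. The groups stood apart, and the spread within the knockout was small, but the log2 fold change of 0.91 (SE 0.28) did not pass (edgeR adjusted p = 0.081). Trim34a was at 3.49, 7.27 and 8.91 CPM in wild type and 7.43, 12.5 and 14.6 CPM in Trim24 -/- livers (log2 fold change 0.82, adjusted p = 0.24). Its groups overlapped, and 39.8% of its 50-base stretches were shared with Trim34b, which had 0 to 2 counts in every library. Gm47248, which overlaps its exons on the opposite strand, held 20.2% of the stretches of Trim34a. Reads of Trim34a and Gm47248 cannot be told apart there without the strand.

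Trim14, an adaptor at mitochondria in antiviral signalling, was at 6.49 ± 2.27 CPM in wild type and 11.1 ± 3.7 CPM in Trim24 -/- livers (SD, n = 3 each, edgeR adjusted p = 0.24). Its gene model overlaps that of Nans on the opposite strand, and the reads of the 2 cannot be told apart without the strand. Trim25, the ligase linked to activation of the RNA sensor RIG-I, was at 34.2, 48.9 and 17.8 CPM in wild type and 35.3, 55.9 and 54.6 CPM in Trim24 -/- livers. WT2 and WT3 differed from each other by more than the group means did, and the log2 fold change of 0.55 did not pass (SE 0.29, adjusted p = 0.32).

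Trim26, from the TRIM cluster near the major histocompatibility complex, was at 17.9 ± 2.9 and 23.6 ± 0.7 CPM, and Trim56, which augments interferon induction by cytosolic nucleic acids, at 7.16 ± 0.58 and 9.55 ± 1.41 CPM. For both, the groups did not overlap, but the changes of 0.40 and 0.42 did not pass (edgeR adjusted p = 0.34 and 0.49). The remaining 2 on the list were scarcely read. Trim38 had 1 count in all, in KO2, and Trim6 had 2 wild type and 9 knockout counts, 3.29 times the wild type level (counting interval 0.681 to 31.3).

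**Figure D2:**
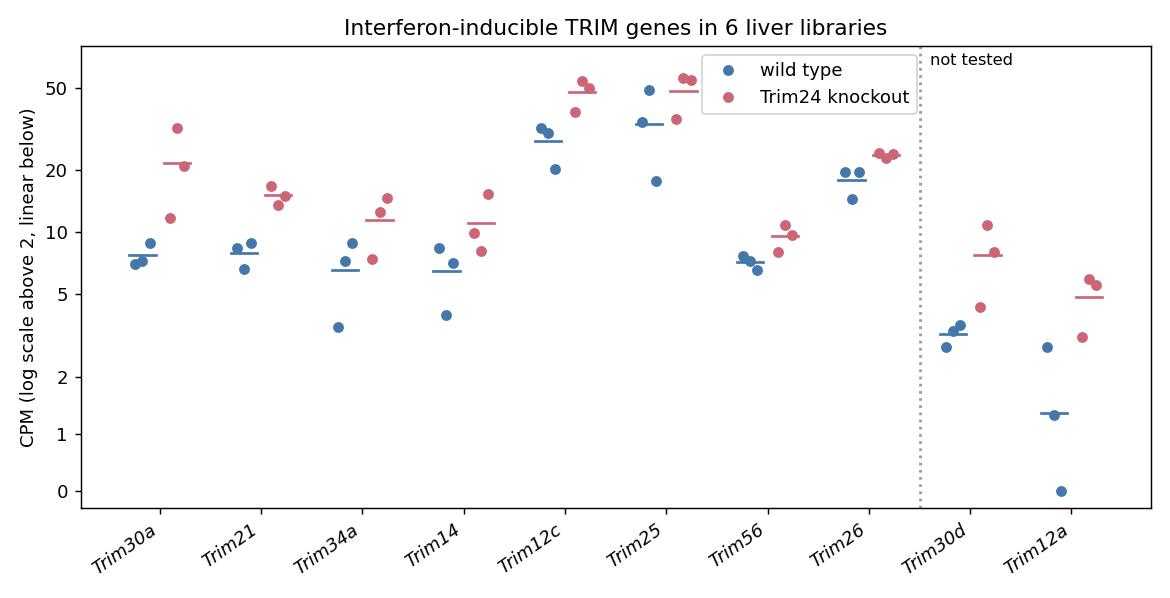
CPM of interferon-inducible TRIM genes in each library (points, blue for wild type and red for knockout, with 3 libraries each) and group means (lines), on an axis that is logarithmic above 2 CPM and linear below; the 8 tested genes are ordered by fold change, and Trim30d and Trim12a were not tested. Knockout means lie above wild type means for all 10 genes shown, and the points of Trim34a, Trim14 and Trim25 overlap between the groups.

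The promoters of these genes were searched for a sequence linked to induction by interferon. The list was chosen for that same trait, so the shares below do not bear on the change in these livers. The interferon-stimulated response element, bound by complexes that hold IRF factors after interferon, is built around pairs of GAAA, and GAAANNGAAA was searched on both strands in the RefSeq promoter windows on GRCm38.p6, from 250 bases before to 50 bases after each start. It was found for 7 of 13 interferon-inducible members with a window (53.8%), for 1 of 36 other members (2.78%, Trim2) and for 3.99% of all 27025 genes with a window. Trim25, Trim56, Trim6, Trim30b, Trim34b and Trim38 had no match, which says only that these letters are not in this window. A match is a description of the sequence and not a measured binding site. The 7 members with a match include near copies, so they are not all separate sequences. Trim12a and Trim12c have the same 24 bases around the match, and Trim30a and Trim30d share a run of 89 bases that holds it.

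The 100 bases just before the start are shown for the 3 members whose match lies there, with the match in capitals (here on the reverse strand, so read as TTTCNNTTTC). Trim30a is at chr7:104465194-104465293, Trim30d at chr7:104507850-104507949 and Trim12c at chr7:104353350-104353449, each on the minus strand and printed in the direction of the gene.
Trim30a: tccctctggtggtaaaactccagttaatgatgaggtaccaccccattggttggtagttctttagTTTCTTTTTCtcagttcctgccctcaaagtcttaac
Trim30d: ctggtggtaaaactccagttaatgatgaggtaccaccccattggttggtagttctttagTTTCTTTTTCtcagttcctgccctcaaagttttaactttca
Trim12c: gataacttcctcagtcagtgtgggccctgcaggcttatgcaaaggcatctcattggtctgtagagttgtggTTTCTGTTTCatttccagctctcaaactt
The matches begin 36, 41 and 29 bases before the start, and a further start of Trim30a has 1 that begins 2 bases after it. Trim30a and Trim30d are identical over a run of 89 bases that holds the match, whereas the longest run that either shares with Trim12c is 7 bases.

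The other matches are printed with 7 bases on each side, for comparison with those above. Trim12a, Trim34a and Trim21 have theirs just after the start, at chr7:104315469-104315492 (minus), chr7:104244460-104244483 (plus) and chr7:102565447-102565476 (minus), and Trim26 before it, at chr17:36836979-36837008 (plus). In Trim21 and Trim26, 2 matches overlap.
Trim12a: gttgtggTTTCTGTTTCatttcca
Trim34a: tttggagTTTCAGTTTCttttctc
Trim21: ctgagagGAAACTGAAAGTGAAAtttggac
Trim26: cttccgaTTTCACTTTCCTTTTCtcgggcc
By RefSeq, Trim6, Trim34a, Trim12a, Trim34b, Trim12c, Trim30b, Trim30a and Trim30d lie together in 1 cluster on chromosome 7, and Trim21 elsewhere on the same chromosome.

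The genes that carry the interferon signal moved in part. Of 12 listed genes of type I interferon signalling, 10 were tested, 5 rose and none fell. Usp18, which removes the modifier ISG15, rose with a log2 fold change of 2.94, Irf7 with 2.10 and Irf9 with 1.31 (edgeR adjusted p = 0.00074, 0.0082 and 0.0018). Usp18 had 7 counts in each wild type library, all under the filter's limit, so it was tested only because of its level in the knockout. Of 12 genes of the RIG-I pathway, in which Trim25 acts, 11 were tested, 2 rose and none fell. Those were the RNA sensor Ifih1 (55.3 ± 4.6 to 107 ± 21 CPM, adjusted p = 0.0068) and the RIG-I regulator Dhx58 (4.999 ± 0.903 to 14.2 ± 5.5 CPM, 0.029). Dhx58 too passed the filter through the knockout alone, with 7, 9 and 7 counts in wild type. Ddx58, which encodes RIG-I, was at 38.0 ± 9.9 and 60.8 ± 18.4 CPM (adjusted p = 0.13).

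Markers of macrophages and other cells were set beside these values. The median difference from the wild type mean, in log2(CPM + 1), was 0.46, 0.77 and 0.85 in KO1, KO2 and KO3 for the 8 interferon-inducible members, and 0.11, -0.02 and 0.14 in WT1, WT2 and WT3. For 17 Kupffer cell and macrophage markers it was 0.27, 1.02 and 1.05 in the knockout libraries and -0.37, 0.36 and 0.14 in wild type. The marker medians overlapped between the groups, with KO1 below WT2, and the TRIM medians did not. In KO2 and KO3 the marker medians were the larger, and for both lists KO1 was the lowest knockout library. The TRIM genes had passed the filter on low counts, which was not applied to the markers, so the lists are not fully alike. The markers summed to 270 to 465 CPM in wild type and 427 to 797 CPM in Trim24 -/- livers, and none was at 0 in any library. Stellate cell markers (8 genes) summed to 478 to 515 CPM in wild type and 636 to 737 CPM in the other group, and 8 liver endothelial markers to 433 to 443 and 362 to 461 CPM. The median of the 6 hepatocyte markers lay between -0.11 and 0.10 in wild type and at -0.22, -0.67 and -0.22 across KO1 to KO3, which is lower. Lymphocyte markers (14 genes) summed to 24.4 to 30.9 and 40.3 to 55.3 CPM, with 7 to 9 of them at 0 in each wild type library and 4 in each knockout library. In bulk liver fewer cells of a type and less RNA per cell cannot be told apart, and the part of these cells in the result was not tested.

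**Figure D3:**
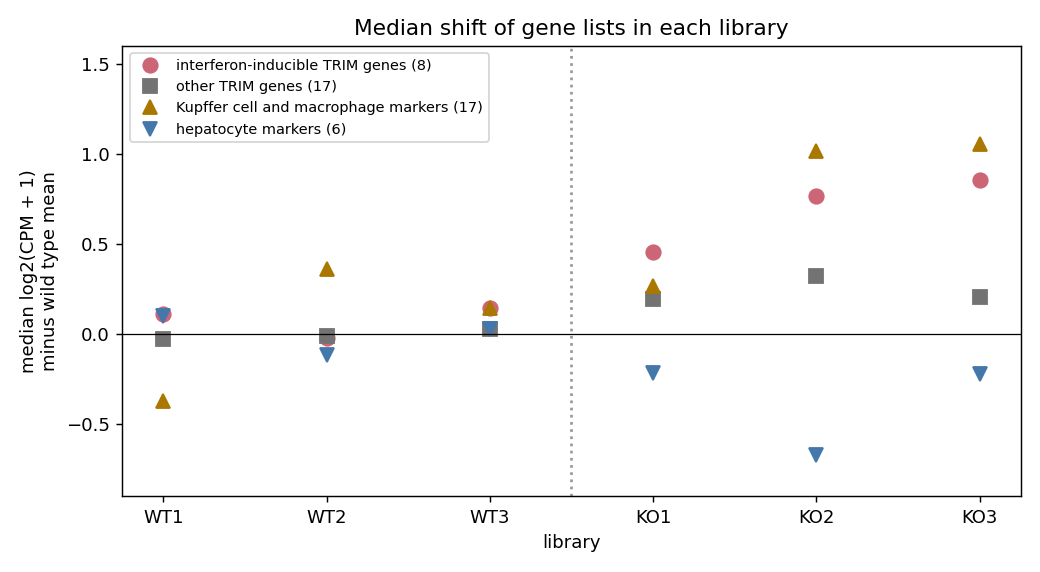
Median difference from the wild type mean, in log2(CPM + 1), of 4 gene lists in each library, with the number of genes in the legend. Interferon-inducible TRIM genes lie at 0.46 to 0.85 in the knockout libraries and at -0.02 to 0.14 in wild type, other TRIM genes at 0.20 to 0.32 in the knockout, and macrophage markers in KO1 lie below those in WT2.

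The nearest relatives of Trim24 did not pass the test. Trim28, the corepressor that zinc finger proteins with a KRAB domain bring to DNA, was at 27.9, 34.4 and 32.7 CPM across WT1 to WT3 and 35.9, 37.4 and 29.2 CPM across KO1 to KO3. Trim33, which binds SMAD proteins and can form complexes with Trim24 and Trim28, was at 61.5, 67.5 and 59.98 CPM in wild type and 60.1, 70.6 and 67.8 CPM in Trim24 -/- livers. In both genes the groups overlapped, with log2 fold changes of 0.10 (SE 0.20) and 0.07 (SE 0.15) and edgeR adjusted p of 0.84 for each. Over all alternatives that were run, the change lay between 0.01 and 0.24 for Trim28 and between 0.03 and 0.16 for Trim33. Trim66, the testis-rich member of the group, had 0 counts in every library, which allows up to 1.04 CPM in KO3.

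Of 17 listed partners of the TIF1 proteins, 16 were tested, 1 rose and none fell, with a median log2 fold change of 0.02. The riser was Mdm2, the ligase of p53 and also a p53 target, at 28.3 ± 6.1 CPM in wild type and 58.3 ± 9.7 CPM in Trim24 -/- livers (edgeR adjusted p = 0.011). Setdb1, the histone methyltransferase that works with Trim28, was at 32.8 ± 3.2 and 31.2 ± 4.9 CPM. Its cofactor Atf7ip was at 28.5 ± 2.5 and 45.6 ± 5.8 CPM, with an adjusted p of 0.0512.

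Outside the interferon list the largest change of the family was in the Trim43 genes, known for expression in the preimplantation embryo. Trim43b was at 2.10, 1.98 and 2.97 CPM in wild type, which is 3, 3 and 5 counts, and at 8.05, 20.6 and 18.8 CPM in Trim24 -/- livers, which is 13, 38 and 54 counts. The groups stood well apart, and KO1 was the lowest knockout library. The log2 fold change was 2.73 (SE 0.46, edgeR adjusted p = 0.0034). The gene was called in all 14 alternatives that tested it, with adjusted p between 2.0e-08 and 0.027. It passed the filter through the knockout libraries alone, as no wild type library reached the limit.

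The 2 other copies did not pass. Trim43c was at 7.68, 8.60 and 5.94 CPM in wild type and 9.29, 20.6 and 16.4 CPM in Trim24 -/- livers (log2 fold change 1.08, SE 0.34, edgeR adjusted p = 0.088), and it was called without KO1 (0.023), without the filter (0.032) and with KO2 as the only knockout library (0.038). Trim43a was at 4.89, 13.9 and 7.72 CPM in wild type and 21.1, 8.14 and 18.4 CPM in Trim24 -/- livers (0.84, SE 0.41, adjusted p = 0.26). The copies did not follow one order over the knockout libraries, since KO1 was the highest for Trim43a and the lowest for Trim43b and Trim43c, and KO2 was the reverse. With KO2 as the only knockout library the sign of Trim43a turned, to -0.12.

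These copies cannot be fully told apart. Of the 50-base stretches of Trim43b, 34.4% also occur in Trim43a and 30.3% in Trim43c, and the counter's total of reads with several alignments was 0 in every library, so how such reads were handled is not recorded. Summed over the 3 copies, the level was 14.7, 24.5 and 16.6 CPM in wild type and 38.4, 49.4 and 53.6 CPM in Trim24 -/- livers, a ratio of the means of 2.53. In the sum the groups stood apart, and KO1 was again the lowest knockout library. The noncoding RNA gene 9330159M07Rik, chosen after its values were seen, overlaps Trim43c on the opposite strand and shares 30.3% of the stretches of Trim43c. It also shares 11.8% of those of Trim43b and 5.61% of those of Trim43a. It rose to 14.9 ± 3.4 CPM from 5.91 ± 1.59 CPM (log2 fold change 1.36, adjusted p = 0.029), a call that ended with DESeq2 (0.060) and with KO2 as the only knockout library (0.090), and without WT1 (0.085), WT2 (0.060), WT3 (0.14), KO2 (0.084) or KO3 (0.11). Without the strand its reads and those of Trim43c cannot be told apart.

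**Figure D4:**
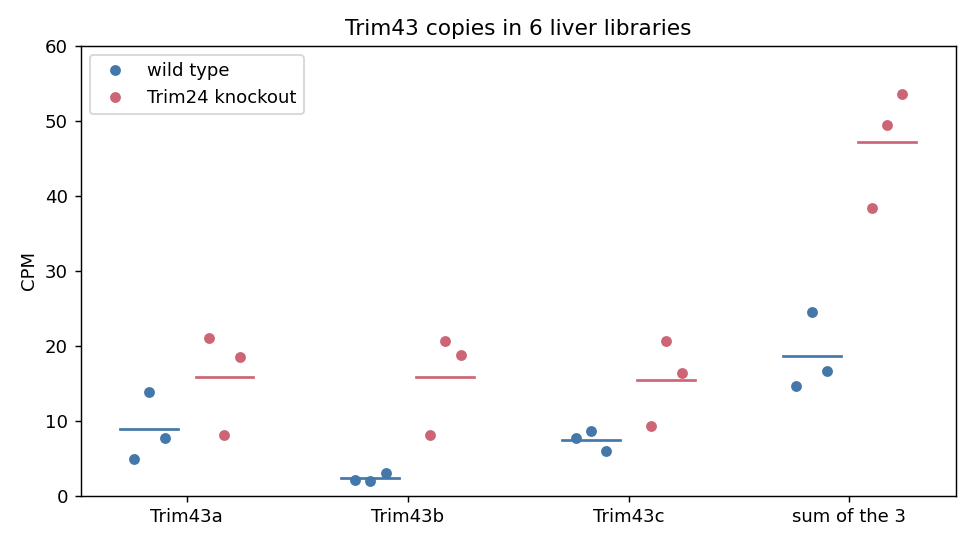
CPM of the 3 Trim43 copies and of their sum in each library (points, blue for wild type and red for knockout, with 3 libraries each), with group means as lines. Trim43b and Trim43c do not overlap between the groups, Trim43a does, and the sum lies at 14.7 to 24.5 CPM in wild type and 38.4 to 53.6 CPM in Trim24 -/- livers.

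The 4 other tested SPRY members outside the interferon list did not pass. Trim11, a ligase with roles in clearing misfolded proteins, was at 5.59, 8.60 and 5.34 CPM in wild type and 11.1, 15.7 and 9.05 CPM in Trim24 -/- livers, without overlap (log2 fold change 0.85, edgeR adjusted p = 0.19). Trim39, which stabilises proteins of the cell cycle and apoptosis, was at 6.91 ± 0.26 and 9.40 ± 1.83 CPM. Trim27 was at 23.1 ± 3.1 and 24.2 ± 5.4 CPM and Trim41 at 30.8 ± 4.5 and 35.2 ± 2.9 CPM, with overlap in both. Over all 14 tested SPRY members the change was positive, with a median of 0.82. For the 7 outside the interferon list the median was 0.84, and 3 of these were the Trim43 copies that share sequence. Trim11 and the Trim43 copies passed the filter with fewer than 3 wild type libraries above its limit, as did Trim14 and Trim34a of the interferon list. Trim27, Trim41 and Trim39, which passed in all 3, had log2 fold changes of 0.05, 0.18 and 0.47.

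None of the 3 tested members with NHL repeats, which bind RNA or cargo, passed. Trim3, a ligase best known from neurons, was at 7.68, 6.61 and 9.50 CPM in wild type and 9.91, 22.8 and 15.3 CPM in Trim24 -/- livers. The groups did not overlap, but KO1 was close to WT3, and the log2 fold change of 1.01 did not pass (SE 0.34, edgeR adjusted p = 0.11). It passed without KO1 (0.035), without the filter (0.046) and with KO2 as the only knockout library (0.027). Trim32, mutated in a limb-girdle muscular dystrophy, was at 9.23 ± 2.87 and 14.2 ± 3.2 CPM (adjusted p = 0.28). Trim2 was at 28.5 ± 0.7 and 23.8 ± 8.8 CPM, and Trim71, a regulator of early development, had 2 counts in all.

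Trim13, anchored in the endoplasmic reticulum, had the lowest fold change of the tested members. It was at 13.3, 15.9 and 10.1 CPM in wild type and 6.81, 6.51 and 9.39 CPM in Trim24 -/- livers. The groups did not overlap, although KO3 came close to WT3, and the log2 fold change of -0.74 did not pass (SE 0.31, edgeR adjusted p = 0.20). Trim59, also with a membrane segment, had 15 counts in wild type and 14 in the knockout and was not tested.

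Of the members with other C termini, the 4 outside the interferon list that were tested did not pass. Trim44, which lacks the RING, and the peroxisome ligase Trim37 were at 62.5 ± 7.6 and 24.96 ± 7.4 CPM in wild type and 66.4 ± 10.9 and 25.6 ± 5.8 CPM in Trim24 -/- livers. Trim8, a regulator of cytokine and p53 signalling, was at 21.7, 14.5 and 21.4 CPM in wild type and 23.5, 35.3 and 21.9 CPM in Trim24 -/- livers. Its groups did not overlap, but KO3 lay just above WT1 (log2 fold change 0.47, edgeR adjusted p = 0.33). Trim23, which ends in an ARF domain, was at 18.0 ± 2.1 and 14.6 ± 2.4 CPM (adjusted p = 0.54).

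Per kilobase of exon in GENCODE M21, the most abundant members in wild type livers were Trim44 at a mean of 11.1 CPM per kb, Trim41 at 8.77, Trim13 at 7.93, Trim28 at 7.62, Trim12c at 7.37, Trim33 at 6.42 and Trim25 at 5.85. The 2 members that rose were low in wild type on this scale, with Trim30a at 1.88 and Trim43b at 1.04 CPM per kb.

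Of the 39 untested members, 13 had no count in any library, 14 had 1 to 9 counts and 12 had 10 or more. Trim15, beside Trim26 in its cluster, had 4, 4 and 8 counts in wild type and 4, 2 and 2 in the knockout, 0.365 times the wild type level (counting interval 0.135 to 0.905), and an edgeR adjusted p of 0.37 without the filter. Trim47 had 3 wild type and 17 knockout counts, a ratio of 4.14 with an interval of 1.20 to 22.1 and an adjusted p of 0.30 without the filter. Trim35, Trim17 and Trim45 had 14, 4 and 7 counts in wild type and 31, 12 and 13 in the knockout, and for Trim7, Trim65 and Trim68 they were 21, 24 and 14 against 37, 27 and 24. The counting intervals of these 6 ratios included 1.

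No member with a COS domain, which binds microtubules, was tested. The muscle members Trim54, Trim63 and Trim72 had no count, and the 1 count of Trim55 was in WT1, the library with the most muscle marker reads. Trim9, Trim36 and Trim46, known from neurons and other tissues, had 3 or 4 counts in all, and Trim42 and Trim67 had none. The members with no count also included Trim31, Trim40, Trim50, Trim52, Trim58, Trim61 and Trim69. Trim10, known from red cell precursors, had 3 counts in KO1 and 1 in KO3, Trim16 had 5 counts in all and Trim62 had 2. Trim29, Trim60 and Trim75 had 1 each.

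Genes of the family that carry other symbols were counted apart. Of 8 such genes, 3 were tested and 1 rose. Mid1, a microtubule-bound ligase with a COS domain, rose to 14.8 ± 7.5 CPM from 3.96 ± 2.45 CPM (log2 fold change 1.85, SE 0.51, edgeR adjusted p = 0.0494), with 5, 10 and 3 counts in wild type, of which only that of WT2 was above the filter's limit. The call ended with RLE size factors (0.0501), with limma-voom (0.12) and without WT1 (0.14), WT2 (0.055), WT3 (0.20), KO1 (0.065) or KO2 (0.19). Its paralog Mid2 was at 15.0 ± 1.2 and 14.8 ± 1.9 CPM. Pml, the interferon-inducible organiser of nuclear bodies, was at 16.5 ± 2.8 and 20.1 ± 8.1 CPM (adjusted p = 0.60).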

How the data were processed

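Total liver RNA was extracted with TRIzol, per the labels' protocols. The authors deposited raw counts per gene symbol for each library, and mm9, HTSeq, TopHat 1.4.1 and edgeR are listed, with no roles, per the submitters' processing notes. No source used here gives the strand setting. Reads in no gene (93.3% to 95.8%) stayed out of library sizes.

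The main test, over all genes, was that of edgeR 4.0.16 (R 4.3.3; quasi-likelihood F test, TMM, genotype as the only term, filterByExpr with a minimum count of 10, which required 5.99 CPM in 3 libraries). Adjusted p is Benjamini-Hochberg over 9180 genes, with 0.05 as the threshold. A standard error is the change divided by the root of F. Alternatives covered scaling, filters, DESeq2 1.42.0, limma-voom 3.58.1, a replicate block, each library left out, KO2 alone, other interferon lists and, added after seeing the data, a filter on wild type libraries alone. Shared 50-base stretches and exon lengths came from GENCODE M21 and promoters from RefSeq, so with mm9 counts no gene coordinates were combined. All 64 symbols matched both, and 49 had a promoter. Named were TIF1 relatives, interferon-list members, called members and up to 6 tested members of each other class; Trim39, Ddx58, Setdb1, Atf7ip, Mid2 and Pml were added after their values were seen. Members and lists were chosen with earlier results of these data known.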

Additional observations from a re-analysis of the deposited data

How the results depend on the processing

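Of 368 member values under an alternative, 346 kept direction and side of the threshold, 6 lost the call (all of Trim30a), 9 gained one (Trim12c, Trim3 and Trim43c, 3 each) and 7 changed sign. The sign changes were those of Trim27 without WT1 (-0.04) and KO2 (-0.13), Trim37 without WT2 (-0.06), WT3 (-0.09) and KO2 (-0.11), Trim44 without KO2 (-0.049) and Trim43a with KO2 as the only knockout library (-0.12), and none of these was called. With each library left out Trim27 lay between -0.13 and 0.21, Trim37 between -0.11 and 0.31 and Trim44 between -0.049 and 0.19. No alternative called a member lower. Members called higher were 2, and became 5 without the filter, 1 with limma-voom, 4 with KO2 as the only knockout library (which assumes that it varies like the wild type libraries), 3 with upper quartile factors, 1 in the genes past the filter in all 3 wild type libraries, and 1 to 5 with each library left out. Interferon-inducible members called were 1, and became 2 with upper quartile factors or without the filter, 0 with limma-voom, and 0 to 2 with each library left out. Other members called were 1, and became 3 without the filter and 1 to 3 with each library left out. They were 0 in the genes past the filter in all 3 wild type libraries, where Trim43b was not tested. Narrower and wider interferon lists left these counts at 1 and 1. The wider list held the same 8 tested members, so its counts could not differ. The narrower list kept 6 tested members, with Trim30a among them. Over all genes, 283 were higher and 243 lower of 9180 in the main fit, and 576 and 509 of 16989 without the filter. The counts were 234 and 239 of 9180 with limma-voom, and 309 and 225 of 9180 with upper quartile factors. Of the 8061 genes past the filter in all 3 wild type libraries, 177 were higher and 237 lower. With each library left out, 127 to 409 were higher and 95 to 363 lower. Apart from those named, the cause of these differences was not tested.

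With a replicate block, 2 members, 295 genes higher and 250 lower were called. Same-numbered libraries did not deviate together from the means of their own groups (r of -0.07, 0.08 and 0.03 across genes). The highest r of any wild type and knockout pair was that of WT1 and KO3, at 0.09, which is also small. At this depth 39 members were not tested, of which 13 had no count.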
